A study of Mus musculus with 24 samples.

Results

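A group of 10 genes that mark blood monocytes and the macrophages that arise from them was followed in the left ventricle of hypertensive mice. They were Ly6c2, Plac8, Chil3, Cd14, Lyz2, Csf1r, Spi1, Cd68, Adgre1 and Arg1, chosen by symbol, and all 10 of them were among the 14912 genes of the table. RNA-seq had been run on whole left ventricles of male wild-type C57BL/6J mice. The hypertensive-LVH group, called the ANG II group here, was 12 mice given ANG II by subcutaneous osmotic mini-pump for 7 days (1500 ng/kg/min). The control group of 12 mice received saline for the same time by the same kind of pump. Hearts of both groups were flushed with saline before the ventricle was taken, and the age of the mice is not given in the sources used here.

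Monocytes leave the bone marrow through the receptor CCR2, carry Ly6C on their surface and enter injured tissue, where they become macrophages. The growth factor receptor CSF1R and the transcription factor PU.1, the product of Spi1, hold cells in this lineage, while CD68 and the surface receptor of Adgre1 accumulate as macrophages mature. The healthy heart also holds resident macrophages that renew themselves in place, and these share CSF1R, PU.1, CD68, Adgre1 and lysozyme with the recruited cells.

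Of the 10 genes, 7 were higher in the ANG II group at an adjusted p under 0.05 in limma with Benjamini-Hochberg adjustment over the 14026 genes tested. These were Cd68, Lyz2, Spi1, Csf1r, Plac8, Adgre1 and Cd14, and of all genes 20.9% passed in this direction. A subset of 5, Plac8, Cd68, Lyz2, Spi1 and Cd14, also exceeded a log2 fold change of 0.5 and were called, against 4.52% of all genes. The fold changes of all 10 genes were positive, with a median of 0.55 on the log2(FPKM + 1) scale, against a median of 0.05 for all genes. Each of these 5 calls was lost without set 2, the mice numbered 4, 5 and 6 of each group, when 0 of the 10 genes and 2.3% of all genes were called higher by limma. The fold changes there had a median of 0.48 over the 10 genes and 0.01 over all genes, with 0.88 for Plac8, 0.76 for Cd68 and 0.50 for Cd14. At an unadjusted p under 0.05, 5 of the 10 still passed in that fit, beside 15.4% of all genes. In whole tissue, more cells of a type and more RNA per cell cannot be told apart.

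The values are FPKM (fragments of a gene per length of its transcript and per number of mapped fragments of the sample) that were shifted and scaled gene by gene, and they fall into 4 sets of samples. The labels do not name these sets, which were found from exact ties between samples. Set 1 held the mice numbered 1, 2 and 3 of each group, set 2 those numbered 4, 5 and 6, set 3 those numbered 7, 8 and 9, and set 4 those numbered 10, 11 and 12. The adjustment gave 11 values below 0 in 4 of the genes, Ly6c2, Plac8, Chil3 and Arg1, which were set to 0 for the fold changes and kept in the levels. Fragment totals per sample are unknown, so no counting error is given.

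**Figure D1:**
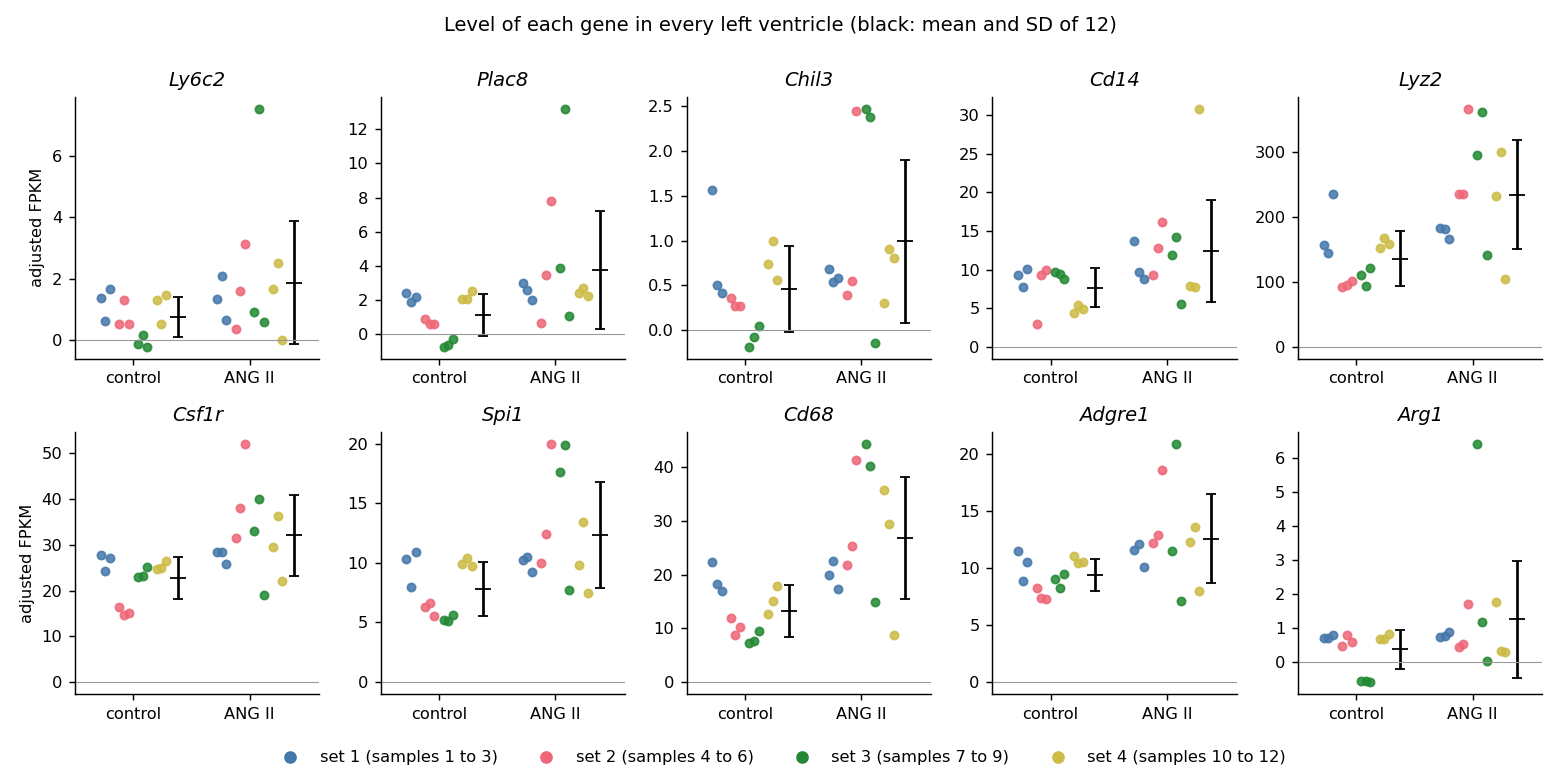
Level of each of the 10 genes in every left ventricle, in adjusted FPKM on a linear axis, with control samples at the left and ANG II samples at the right of each panel. Points are mice coloured by set, and the black bars give the mean and SD of 12 mice. Lyz2 reached 367 in ANG II sample 6, while Cd14 was highest in ANG II sample 12 at 30.9 and Arg1 in ANG II sample 7 at 6.41.

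Promoters were examined for the letters bound by PU.1, since Spi1 is one of the 10 genes and most of the others varied together with it. RefSeq promoters of build GRCm38.p6, from 250 bases before to 50 bases after the first listed start, were at hand for 5 of the genes, Ly6c2, Plac8, Chil3, Lyz2 and Cd68. The core letters GAGGAA of PU.1 were searched on both strands and were present in 3 of these 5 promoters and in 28.3% of 27025 promoters. The 3 are printed from 5′ to 3′ on the strand of the gene, with GAGGAA or its reverse complement in capitals. They lie at chr15:75111922-75112221 for Ly6c2, chr5:100572156-100572455 for Plac8 and chr11:69666121-69666420 for Cd68, all on the minus strand.
Ly6c2: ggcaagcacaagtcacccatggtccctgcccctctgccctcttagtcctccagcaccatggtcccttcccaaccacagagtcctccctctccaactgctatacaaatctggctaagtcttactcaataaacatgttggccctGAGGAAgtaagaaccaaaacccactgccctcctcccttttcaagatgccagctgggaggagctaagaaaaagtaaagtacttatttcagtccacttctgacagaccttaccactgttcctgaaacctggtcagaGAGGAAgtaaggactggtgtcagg
Plac8: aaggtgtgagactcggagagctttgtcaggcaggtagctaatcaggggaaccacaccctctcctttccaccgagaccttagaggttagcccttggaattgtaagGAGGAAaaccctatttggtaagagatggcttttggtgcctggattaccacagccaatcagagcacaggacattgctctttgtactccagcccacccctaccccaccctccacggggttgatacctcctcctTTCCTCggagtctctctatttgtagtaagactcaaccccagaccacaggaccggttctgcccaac
Cd68: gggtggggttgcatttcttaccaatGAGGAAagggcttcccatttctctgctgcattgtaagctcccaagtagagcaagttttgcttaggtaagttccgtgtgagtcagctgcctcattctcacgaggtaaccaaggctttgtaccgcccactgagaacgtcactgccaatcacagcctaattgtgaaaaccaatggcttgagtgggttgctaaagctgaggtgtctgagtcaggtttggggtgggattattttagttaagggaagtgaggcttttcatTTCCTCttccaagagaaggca

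Each of the 3 promoters held the letters at 2 places. The C/EBP letters TTGCNNAA were present in the promoter of Cd68 and in 10.8% of all promoters, and an NF-kB motif and the TATA box letters TATAAA in that of Chil3, with 20.5% and 14.2% of all promoters. The Lyz2 promoter held none of the 4 motifs in this window. In the searched promoters of the 5 genes no match of one motif overlapped a match of another. A match describes the letters only.

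The 3 monocyte genes, Ly6c2, Plac8 and Chil3, were low in level and uneven among mice, and 1 of them, Plac8, passed. Ly6c2 encodes a Ly6C surface protein of inflammatory monocytes and lies on chromosome 15 at 75108158 to 75111970 (GRCm38, minus strand). Its level ran from 0.0262 through a median of 1.47 to 7.53 adjusted FPKM in the ANG II group and from -0.200 through 0.574 to 1.67 in the control group. ANG II sample 8 was far above the rest, and the groups overlapped, with 5 of 12 ANG II samples above the highest control. The means were 1.87 ± 2.00 and 0.768 ± 0.645 (SD, n = 12 each), and the log2 fold change of 0.52 ± 0.26 (SE) did not pass (limma, adjusted p = 0.119).

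Reads of Ly6c2 are shared in part with Ly6c1, an endothelial Ly6C gene on the same chromosome at 75044018 to 75048830. The longest transcripts were identical at 97.6% of 822 aligned bases, and 39 of 673 stretches of 150 bases, the read length, were the same in both. Ly6c1 was 153-fold above Ly6c2 in the mean of the ANG II group and 325-fold above it in the control group, and the Ly6c2 level is uncertain for this reason. The values of Ly6c2 and Ly6c1 varied apart, with r = -0.04 over 24 samples after the mean of each group in each set was removed.

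Plac8, a small cysteine-rich protein of monocytes and other myeloid cells, had the largest fold change of the 10 genes. It lies on chromosome 5 at 100553725 to 100572245. The level ran from 0.682 through 2.65 to 13.2 in the ANG II group and from -0.715 through 1.37 to 2.53 in the control group. Of 12 ANG II samples 7 exceeded every control, led by samples 8 and 6, while ANG II samples 4 and 9 lay below the control median. The means were 3.76 ± 3.47 and 1.14 ± 1.22 (SD, n = 12 each), a log2 fold change of 0.97 ± 0.30 (limma, adjusted p = 0.0150).

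Chil3 encodes Ym1, a secreted chitinase-like protein of monocytes and alternatively activated macrophages, and lies on chromosome 3 at 106147554 to 106167564. Its level ran from -0.140 through 0.631 to 2.48 in the ANG II group and from -0.186 through 0.386 to 1.56 in the control group. ANG II samples 6, 7 and 8 stood above all others. The log2 fold change of 0.38 ± 0.19 did not pass (limma, adjusted p = 0.130). The near copy Chil4, 94.4% identical over 1538 aligned bases, is not among the genes of the table, and no stretch of 150 bases was shared.

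Genes for sensing and killing bacteria were higher. Lyz2 encodes lysozyme M, the lysozyme of monocytes, macrophages and neutrophils, and had the highest level of the 10 genes per length. It lies on chromosome 10 at 117277331 to 117282321. Levels ran from 105 through 234 to 367 in the ANG II group and from 91.5 through 133 to 235 in the control group. The groups overlapped, but 11 of 12 ANG II samples were above the control median, and sample 12 was the exception. The means were 234 ± 83.9 and 136 ± 42.2 (SD, n = 12 each), with a log2 fold change of 0.75 ± 0.19 (limma, adjusted p = 0.00365). Its neighbour Lyz1, the lysozyme of Paneth cells, was at 0.0583 of the Lyz2 level in the ANG II group and at 0.0602 in the control group. The values of Lyz1 and Lyz2 had r = 0.90 over 24 samples with the group and set means removed. Their transcripts were 96.0% identical over 1262 aligned bases, and 0 of 1167 stretches of 150 bases were shared.

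Cd14, the co-receptor that hands lipopolysaccharide to TLR4, ran from 5.51 through 10.8 to 30.9 in the ANG II group and from 2.98 through 9.03 to 10.1 in the control group. Every control was exceeded by 6 ANG II samples, while 4 lay below the control median. The means were 12.4 ± 6.61 and 7.65 ± 2.54 (SD, n = 12 each), with a log2 fold change of 0.58 ± 0.21 (limma, adjusted p = 0.0370). With the set as a term in limma the adjusted p was 0.0523, without set 1 it was 0.0528, and with quantile normalization it was 0.0551. The call was also lost when ANG II sample 1, 5, 6, 8 or 12 or control sample 4, 10, 11 or 12 was left out, where the adjusted p in limma reached 0.0677 at most.

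The receptor and the transcription factor of the lineage varied together. Csf1r, the receptor for the growth factors CSF1 and IL-34, ran from 19.1 through 30.5 to 52.1 in the ANG II group and from 14.6 through 24.4 to 27.8 in the control group. Every control was exceeded by 9 of 12 ANG II samples, and samples 9 and 12 were the lowest of the group. The means were 32.0 ± 8.84 and 22.7 ± 4.67 (SD, n = 12 each), with a log2 fold change of 0.46 ± 0.13 (limma, adjusted p = 0.0106). The fold change lay under the threshold of 0.5 and passed it without ANG II sample 9 (0.52) or 12 (0.51) and without set 1 (0.59), set 3 (0.52) or set 4 (0.56). Without set 2 it was 0.18 ± 0.10 (limma, adjusted p = 0.245), the largest drop of the 10 genes.

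Spi1 lies on chromosome 2 at 91082390 to 91115756. Spi1 levels ran from 7.51 through 10.4 to 20.0 in the ANG II group and from 5.13 through 7.30 to 10.9 in the control group. All 12 ANG II samples were above the control median, which held for 7.42% of all genes, and 5 of them were above every control. That median pools the 4 sets. Within set 4, ANG II sample 12 (7.51) lay below each control (9.77, 9.88 and 10.4), and the log2 difference was -0.002. Over all samples the log2 fold change was 0.58 ± 0.16 (limma, adjusted p = 0.00806).

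Cd68, a glycosylated lysosomal membrane protein of macrophages, had the lowest adjusted p of the 10 genes. It lies on chromosome 11 at 69664213 to 69666153. Its level ran from 8.83 through 23.9 to 44.3 in the ANG II group and from 7.30 through 12.3 to 22.4 in the control group. Samples 6, 7 and 8 of the ANG II group were all above 40 adjusted FPKM, and sample 12 was the single one below the control median. The means were 26.8 ± 11.4 and 13.2 ± 4.85 (SD, n = 12 each), with a log2 fold change of 0.92 ± 0.22 (limma, adjusted p = 0.00290).

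Adgre1 encodes an adhesion-type receptor on the surface of mouse macrophages, and lies on chromosome 17 at 57358691 to 57483527. Its level ran from 7.10 through 12.2 to 20.9 in the ANG II group and from 7.31 through 9.30 to 11.5 in the control group. Of 12 ANG II samples 9 exceeded every control, and sample 9 lay below the lowest one. The log2 fold change was 0.35 ± 0.12 (limma, adjusted p = 0.0325). This adjusted p in limma rose to between 0.0501 and 0.0622 when ANG II sample 6, 8 or 11 or control sample 4, 5 or 6 was left out, and to 0.0511 with the set as a term.

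Arg1, the arginase that turns arginine into ornithine and urea, lies on chromosome 10 at 24915221 to 24927484. Arg1 levels ran from 0.0265 through 0.747 to 6.41 in the ANG II group and from -0.593 through 0.674 to 0.810 in the control group. ANG II sample 7 stood alone at 6.41, the next highest was sample 10 at 1.77, and 5 of 12 ANG II samples lay below the control median. The log2 fold change of 0.38 ± 0.22 did not pass (limma, adjusted p = 0.185), and it was 0.21 without ANG II sample 7.

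**Figure D2:**
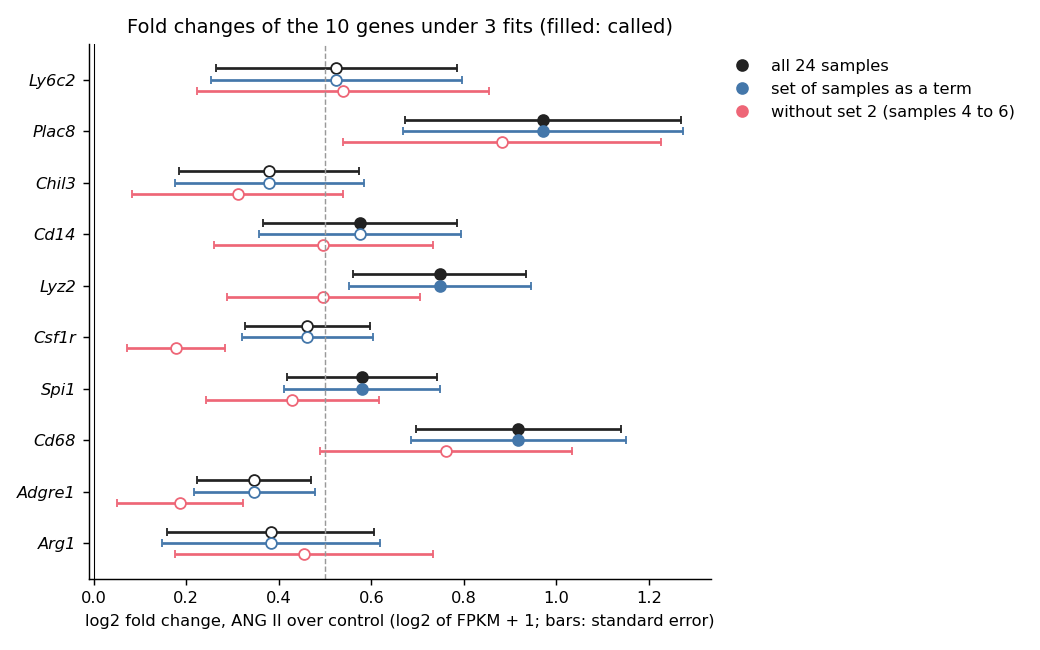
Log2 fold change of each gene, ANG II over control, with bars of 1 standard error, in all 24 samples, with the set of samples as a term, and without set 2. Filled points were called at an adjusted p under 0.05 and a log2 fold change over 0.5 (dashed line). The calls were 5 genes in all samples, 4 with the set as a term (4.41% of all genes) and 0 without set 2.

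The difference between the groups was largest within set 2 or set 3 for 9 of the 10 genes, and within set 4 for Cd14. Within set 2 all 10 genes were higher on average in the ANG II mice, with a median log2 difference of 0.93, and in 6 genes the 3 ANG II mice lay above the 3 controls. Of all genes, 38.5% were separated upward in this set. Within set 3 all 10 were higher as well, with a median log2 difference of 1.22, and 6 were separated upward, against 10.2% of all genes. In set 1 the median was 0.06 with 0 of the 10 genes separated (6.97% of all genes), and in set 4 it was 0.07 with 1 gene, Cd14, separated (10% of all genes).

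The separated genes of sets 2 and 3 had 3 in common. In set 2 they were Lyz2, Csf1r, Spi1, Cd68, Adgre1 and Chil3. In set 3 they were Lyz2, Spi1, Cd68, Ly6c2, Plac8 and Arg1, though for Ly6c2 and Plac8 the groups overlapped before the adjustment, where ANG II sample 9 lay below a control. Lyz2 shows the size of the pattern, with ANG II and control means of 279 and 95.6 in set 2, 266 and 109 in set 3, 213 and 159 in set 4, and 177 and 179 in set 1. In limma within single sets, set 2 gave 5 called genes, Lyz2, Csf1r, Spi1, Cd68 and Adgre1, where 16.3% of all genes were called higher. Set 3 gave 1, Cd68, where 2.05% were called higher. Sets 1 and 4 gave 0 calls among the 10 genes in limma, where 0% and 0.0713% of all genes were called higher, with 0 and 1 of the 10 at an unadjusted p under 0.05, where 4.07% and 5.55% of all genes passed upward.

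A test of whether the response differed between the 4 sets passed for Csf1r and Spi1. The interaction of set and treatment in limma had an adjusted p of 0.0231 for Csf1r and 0.0440 for Spi1, and 7.49% of all genes passed. For Csf1r the ANG II and control means were 40.5 and 15.4 in set 2, against 27.6 and 26.4 in set 1, 30.7 and 23.8 in set 3, and 29.3 and 25.3 in set 4. The 3 control mice of set 2 had the lowest deposited Csf1r of the 24 mice, though the offset of a set before the adjustment is unknown.

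Fibroblast markers were also uneven among the samples. The summed level of 8 fibroblast genes was 200 to 305 in the controls of set 2 and 886 to 1074 in the other 9 controls. That of the 10 genes was 140 to 151 in the controls of set 2 and 148 to 315 in the others. In the controls of set 3 the 10 genes summed to 148 to 180, with a fibroblast sum of 886 to 933. Col1a1, Col1a2 and Col3a1 each had 3 values below 0, counted as 0 in these sums, and the offset of a set before the adjustment is unknown. Among ANG II mice the fibroblast sum was highest in samples 6, 8 and 5 and lowest in sample 9. The part of the fibroblast genes in the result was not tested.

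**Figure D3:**
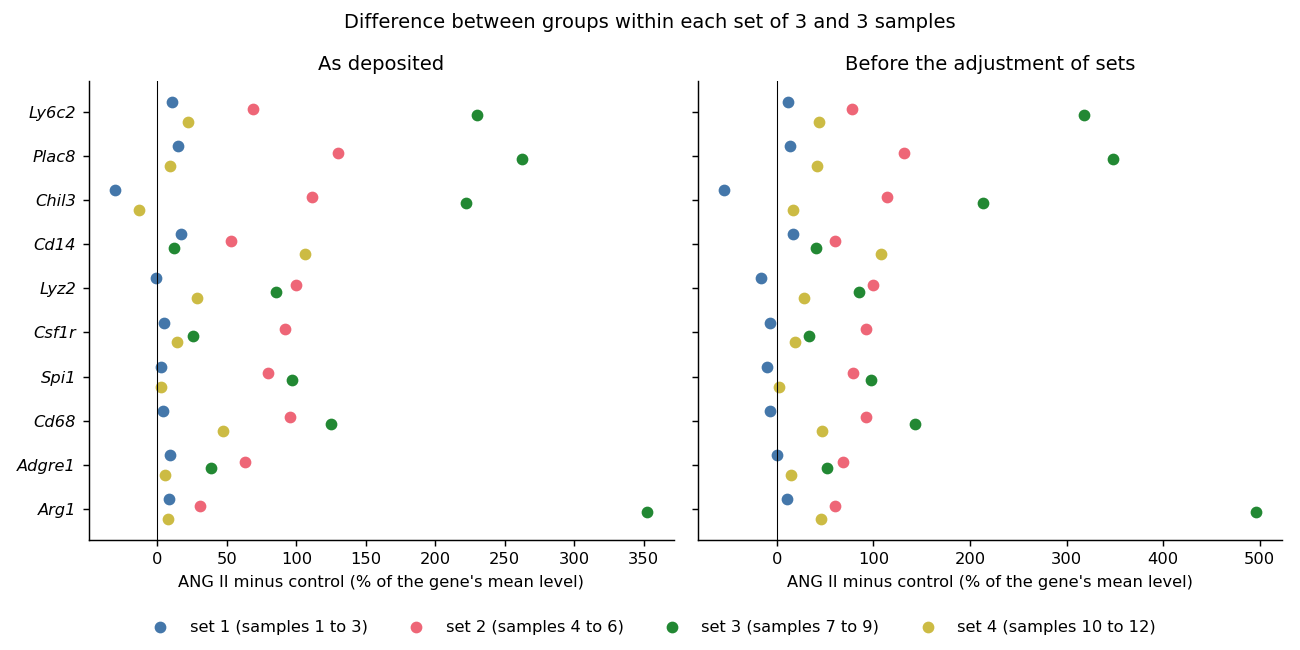
Difference of the mean levels, ANG II minus control, within each set of 3 and 3 samples, as a percent of the mean level of the gene over 24 samples, as deposited at the left and before the adjustment of the sets at the right. Points are coloured by set. Sets 2 and 3 lie at the right of zero for all 10 genes, and set 1 lies at or below zero for 6 genes before the adjustment.

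The differences within the sets before the adjustment could be recovered for all 10 genes from the spacing of the values. Before it, ANG II mice were higher in all 10 genes in sets 2, 3 and 4, where 74.6%, 53.5% and 59.2% of all recovered genes were higher, and in 4 genes in set 1, with 41.3% of recovered genes. The groups were separated upward in 9 of the 10 genes in set 2 (40.7% of recovered genes) and in 6 in set 3 (18.9%), which were Cd14, Lyz2, Spi1, Cd68, Adgre1 and Arg1. In set 1, Lyz2 was lower by 29.9 FPKM where the deposited values differed by -1.76, and Chil3, Csf1r, Spi1 and Cd68 were lower as well, while Adgre1 did not differ. For Cd68 the ANG II minus control differences before the adjustment were -1.5 FPKM in set 1, 18.5 in set 2, 28.6 in set 3 and 9.27 in set 4.

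A limma fit of the recovered values with the set as a term passed 5 of the 10 genes, against 15.7% of recovered genes in this direction. The mean difference was 91.0 ± 29.9 FPKM (SE) for Lyz2 (limma, adjusted p = 0.0316), 13.7 ± 4.31 for Cd68 (limma, adjusted p = 0.0252) and 9.42 ± 2.95 for Csf1r (limma, adjusted p = 0.0247). It was 4.25 ± 1.55 for Spi1 (limma, adjusted p = 0.0490) and 3.72 ± 1.08 for Adgre1 (limma, adjusted p = 0.0171). Plac8 and Cd14, called on the deposited values, did not pass here, with differences of 3.36 ± 1.58 FPKM (limma, adjusted p = 0.113) and 5.63 ± 2.08 FPKM (limma, adjusted p = 0.0518).

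The same ANG II mice were high or low for most of the genes. Sample 6 was among the 3 highest ANG II samples for all 10 genes and sample 8 for 9 of them, while sample 9 was among the 3 lowest for all 10 and the lowest for 5. Sample 12 was among the 3 lowest for 7 genes and the highest for Cd14. The summed level of 10 cardiomyocyte genes was lowest in samples 6 (35772) and 8 (36906) and highest in sample 9 (52244). Samples 7 and 12 did not follow this order. Sample 12 had 39312.5, with the lowest sum of the 10 genes in the group (185), and sample 7 had 50069, with a sum of 428. The part of the cardiomyocyte genes in the order of the mice was not tested. The summed level of 7 red blood cell genes was lowest of the ANG II group in sample 8 (780) and second highest in sample 9 (4944).

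Most of the 10 genes varied together from mouse to mouse. After the mean of each group in each set was removed, Pearson's r over 24 samples had a median of 0.66 among 45 pairs and exceeded 0.5 in 32 of them. The highest was 0.96 between Csf1r and Spi1. Cd14 had a median r of 0.09 with the other 9 genes and ranged from -0.23 to 0.45, but without the 2 samples farthest from its median, ANG II sample 12 and control sample 4, the median was 0.42 and the range 0.22 to 0.61. Without the 2 samples farthest from its own median, ANG II samples 7 and 9, Arg1 had a median r of 0.28, from 0.51 in all samples. Chil3 likewise had 0.29 without ANG II samples 6 and 9, from 0.58. For the remaining genes the median without their own 2 farthest samples lay between 0.56 (Cd68) and 0.79 (Adgre1). The 24 samples share sets and an unknown depth, and the coefficients are descriptions.

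**Figure D4:**
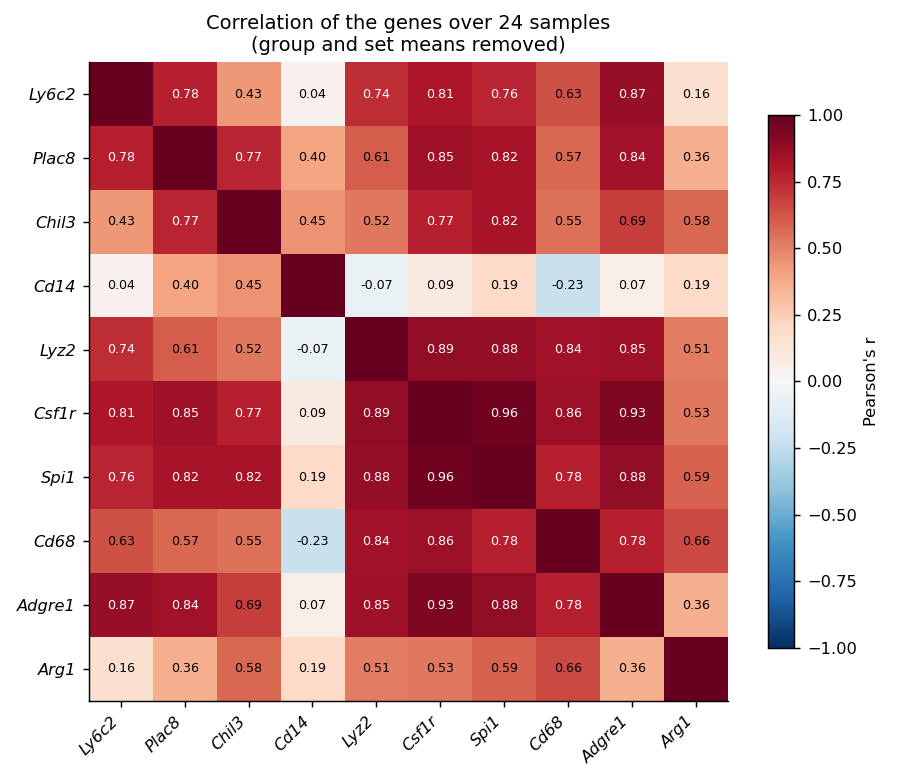
Pearson's r between each pair of the 10 genes over 24 samples, computed on log2(FPKM + 1) after the mean of each group in each set was removed, with red for positive and blue for negative values. Csf1r and Spi1 share 0.96, and the row of Cd14 stays at or below 0.45 in these 24 samples, values that rest in part on 2 of them.

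The genes most like each of the 10 were taken from the 11458 genes that averaged 1 or more. Nearest to Csf1r were Pld4 (r = 0.98), Nckap1l and C1qa, and nearest to Spi1 were Fcer1g (0.97), Csf1r and Cyth4. Adgre1 was followed by Pld4 (0.95), C1qa and Fcgr1, Lyz2 by Tyrobp (0.96), C1qc and Ctsz, and Cd68 by Trem2 (0.92), Cotl1 and Pgd. Plac8 was nearest to Ctss (0.95), Cd53 and Epsti1, Ly6c2 to Ms4a7 (0.93), Aif1 and Adgre1, and Chil3 to Itgam (0.93), Csf2rb and Apobr. Arg1 had lower values, led by Itgb2 (0.78), Slc11a1 and Clec10a, and without the 2 samples farthest from its median the first of these was 0.56.

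Cd14 was nearest to Il4ra (r = 0.89), Inhbb and Cnppd1. Il4ra, the receptor subunit for interleukins 4 and 13, was at 17.7 ± 4.76 adjusted FPKM in the ANG II group and 10.8 ± 2.46 in the control group (SD, n = 12 each), a log2 fold change of 0.65 ± 0.13 (limma, adjusted p = 5.18e-04). It held without set 2, with 0.75 (limma, adjusted p = 0.00130).

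Genes of blood monocytes rose beside the 10. In a list of 24 tested genes, 14 rose at an adjusted p under 0.05 in limma, and the other 10 did not pass, with a median log2 fold change of 0.49 and 20.9% of all genes passing. The largest were Fn1, fibronectin, at 2.08 ± 0.69, and Clec4d, a C-type lectin of myeloid cells, at 1.12 ± 0.22. Fn1 had 3 values below 0, and without set 2 its fold change was 0.46 (limma, adjusted p = 0.0891), where Clec4d had 1.21. Fibronectin is also made by fibroblasts. Ccr2, the receptor for the monocyte chemokine CCL2, was at 3.94 ± 2.35 adjusted FPKM in the ANG II group and 1.74 ± 0.911 in the control group (SD, n = 12 each), a log2 fold change of 0.81 ± 0.22 (limma, adjusted p = 0.00734). Without set 2, where 8.36% of all genes rose, 4 of the 24 did, namely Clec4d, Cd300lf, Clec4e and Ace.

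Some genes of monocyte recruitment rose, and the CCR2 ligands did not pass. Of 20 tested genes for monocyte recruitment and growth, 8 rose and 0 fell in limma, where 20.9% of all genes rose and 12.6% fell. The largest rises were in Csf2rb, a shared subunit of cytokine receptors such as that for GM-CSF (0.83 ± 0.18), and Selplg, the selectin ligand of leukocytes (0.61 ± 0.14). The adhesion molecule genes Selp (0.60), Itgb1 (0.28) and Itgal (0.27) rose, and without set 2 Itgb1 alone of these passed (0.25, limma, adjusted p = 0.0141). Vcam1 (0.37), Icam1 (0.19), Sele (0.17) and Itga4 (0.18) did not pass, with adjusted p in limma from 0.0779 to 0.171. Ccl2, a main ligand of CCR2, was at 4.84 ± 3.71 adjusted FPKM against 4.93 ± 3.30 in the control group (SD, n = 12 each), a log2 fold change of -0.12 ± 0.33 (limma, adjusted p = 0.791), and Ccl7 and Ccl12 had -0.21 and 0.05. Csf1, the ligand of CSF1R, had -0.19 ± 0.10 (limma, adjusted p = 0.139), and without set 2 it fell by 0.32 (limma, adjusted p = 0.0192).

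In the list of macrophage identity genes and lineage factors, 17 of 22 rose in limma, beside 20.9% of all genes, with a median log2 fold change of 0.48. Ctss, the lysosomal protease cathepsin S, had 1.33 ± 0.27 and Mpeg1, perforin-2 of macrophages, 1.26 ± 0.25. Without set 2, 8 of the 22 and 8.36% of all genes rose. Nr1h3, the oxysterol receptor LXR alpha, went the other way in that fit, where it fell by 0.45 (limma, adjusted p = 0.00107), and had -0.20 in all samples (limma, adjusted p = 0.165).

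Of 14 genes of CD14 and TLR4 signaling, 6 rose and 1 fell in limma, where 20.9% of all genes rose and 12.6% fell. The median log2 fold change of the 14 was 0.11. Lbp, the plasma protein that brings lipopolysaccharide to CD14, rose by 0.75 ± 0.20 and Tlr2 by 0.42 ± 0.14, while the kinase gene Irak1 fell by 0.10. Tlr4 itself rose by 0.20 ± 0.06 (limma, adjusted p = 0.0216). Without set 2, 1 of the 14 rose, beside 8.36% of all genes, and 1 fell. In that fit Lbp had 0.33 (limma, adjusted p = 0.145) and Tlr2 0.16 (limma, adjusted p = 0.340).

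Markers of alternative activation, among which Arg1 and Chil3 are counted, went both ways. Of 15 tested genes of alternative activation and arginine use, 6 rose and 2 fell in limma, where 20.9% of all genes rose and 12.6% fell. Retnla, encoding the secreted protein RELM alpha, was at 2.29 ± 1.44 adjusted FPKM in the ANG II group and 7.02 ± 2.94 in the control group (SD, n = 12 each) and fell by 1.28 on the log2 scale (limma, adjusted p = 6.48e-04). Mgl2, a C-type lectin of macrophages and dendritic cells, fell by 0.73 (limma, adjusted p = 1.48e-04). Both also fell without set 2, by 1.23 and 0.79. Ass1, which makes argininosuccinate in the synthesis of arginine, rose by 0.72 ± 0.19, and Il4ra by the value above. Without set 2, where 2 of the 15 and 8.36% of all genes rose, Ass1 had 0.33 (limma, adjusted p = 0.124).

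Of 12 genes of resident cardiac macrophages 4 rose and 2 fell in limma, where 20.9% of all genes rose and 12.6% fell. Among those that rose were the scavenger receptor gene Cd163 (0.55 ± 0.11) and the complement receptor gene Vsig4 (0.55 ± 0.15). The 2 that fell were Ccl24, a chemokine for eosinophils (-0.50 ± 0.15), and Timd4, a receptor for phosphatidylserine (-0.45 ± 0.11). Timd4 was at 0.741 ± 0.373 adjusted FPKM in the ANG II group and 1.36 ± 0.392 in the control group (SD, n = 12 each, limma, adjusted p = 0.00213), and it fell by 0.51 without set 2. The other 2 that rose in all samples were Lyve1 (0.48 ± 0.14) and Mrc1 (0.37 ± 0.13). Without set 2, 2 of the 12 rose, Cd163 and Lyve1 (0.46, limma, adjusted p = 0.0249), beside 8.36% of all genes. Timd4 was the 1 that fell, beside 1629 of 14026 genes. In that fit Vsig4 had 0.29 (limma, adjusted p = 0.0636) and Ccl24 -0.45 (limma, adjusted p = 0.0776). The summed level of the 12 genes was 141 to 317 in the ANG II group and 118 to 204 in the control group.

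Neutrophils share lysozyme and some surface proteins with monocytes. Of 9 tested neutrophil genes, 1 rose in limma, beside 20.9% of all genes. It was Csf3r (0.50), which is also in the recruitment list. The median log2 fold change of the neutrophil genes was 0.03 (-0.05 with quantile normalization). Their summed level was 3.27 to 28.6 in the ANG II group and 5.58 to 56.6 in the control group, and Ly6g and Camp had means under 0.1. Red blood cell genes were higher in the ANG II group and uneven among mice. The summed level of 7 red blood cell genes was 780 to 6446 (median 2862) in the ANG II group and 92.3 to 2950 (median 684) in the control group. Of the 7, 5 rose, also without set 2, and the median log2 fold change was 1.63 (1.73 without set 2). In each of these 5, all 12 ANG II samples were above the control median, which held for 7.42% of all genes. The part of blood in the levels of Ly6c2, Plac8 and the blood monocyte list was not tested. Of 10 cardiomyocyte genes 5 fell in limma, beside 12.6% of all genes. Their summed level was 35772 to 52244 in the ANG II group and 46935 to 60552 in the control group. The median log2 fold change of the 10 was -0.27 and turned to 0.05 with quantile normalization.

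**Figure D5:**
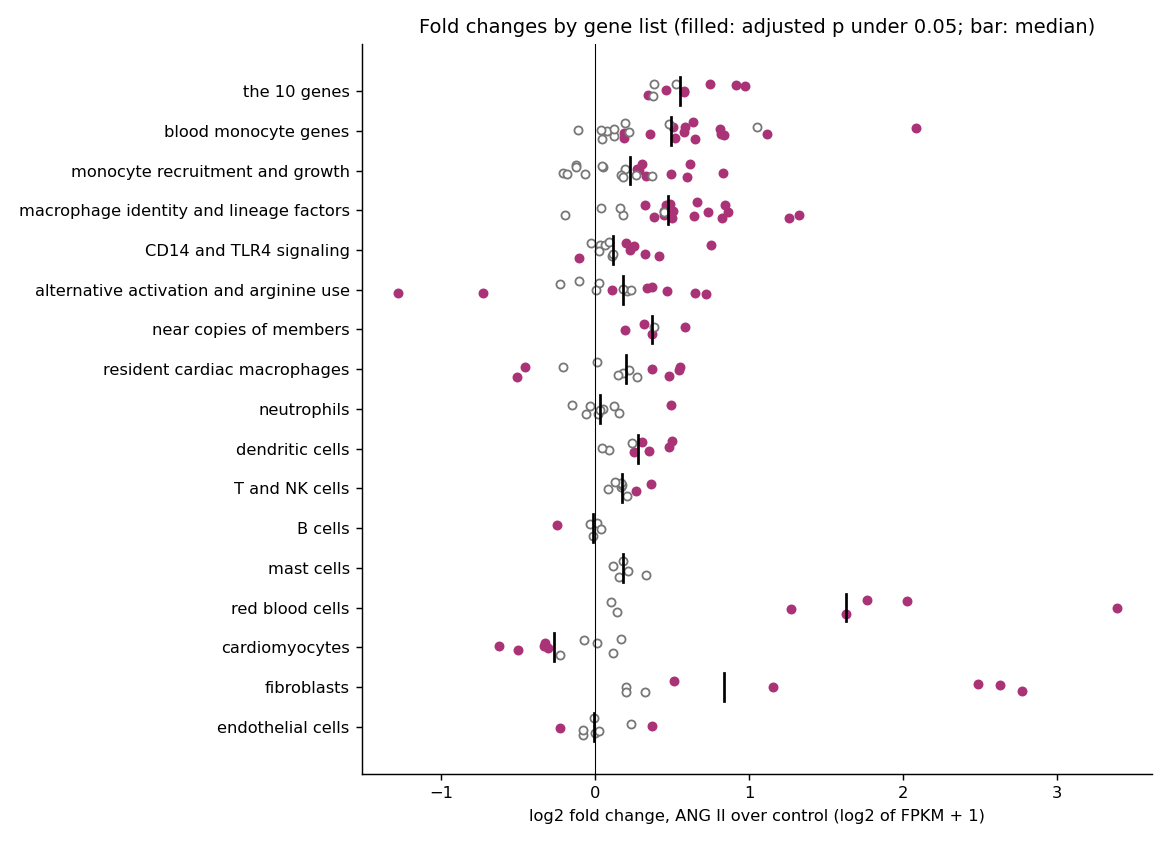
Log2 fold change, ANG II over control, of the 10 genes (top row) and of each tested gene of the lists, with filled points at an adjusted p under 0.05 in limma and a bar at the median of the list. The 10 genes, with a median of 0.55, lie beside the blood monocyte list (0.49) and the macrophage identity list (0.48), and the neutrophil list is centred at 0.03.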

How the data were processed

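Left ventricles of 12 ANG II and 12 saline mice had been sequenced by the authors from oligo(dT)-selected RNA in paired reads of 150 bases, and 4 further samples per group that the paper names were not analysed here. The authors deposited FPKM, of which 2741 values (0.766%) are negative. Bowtie2, HISAT and RSEM are named in the submitters' processing notes without roles, and the genome build and any adjustment step are not given in the sources used here. The extraction text of the labels names other cells than heart, while cardiomyocyte genes were abundant in every sample.

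Exact ties (215 to 541 genes per pair of samples, at most 1 between other pairs) gave the 4 sets. The authors' FPKM was therefore treated as a score adjusted within sets, and no test here allows for the groups having entered that adjustment. Differences before it were recovered for 13145 genes, assuming steps of 0.01 FPKM. The recovery was tested on simulated data. The offset of a set is not recovered.

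A mean of at least 0.1 was required of a gene, which left 14026 for limma 3.58.1 on log2(FPKM + 1) in R 4.3.3, with an intensity trend and two-sided tests. Calls needed an adjusted p under 0.05 and an absolute log2 fold change over 0.5, the thresholds of the study. The test was also checked on simulated data. Tables were made with Python 3.11.15, pandas 2.3.3 and Biopython 1.88. Alternatives were another number added, other filters and scalings, no trend, a Wilcoxon test, the set or the replicate number in the fit, and leaving out mice or sets. Levels between genes are per length.

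The genes, lists and tests were chosen with earlier results of these data known. Named were all 10 genes, the 2 largest increases and decreases of each list, near copies and relatives, and the 3 genes most like each of the 10. Ccr2, the CCR2 ligands, Csf1, Nr1h3, Tlr4, Vcam1, Icam1, Sele, Itga4, Selp, Itgb1, Itgal, Lyve1 and Mrc1 were named after their values were seen. So were the genes named as rising without set 2, the mice numbered 4, 5 and 6. Lyz1, Csf3r and Mrc1 are each in 2 lists. Gene positions are from GENCODE vM21 (GRCm38).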

Additional observations from a re-analysis of the deposited data

Results flagged for a closer look

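The response to ANG II differed between the 4 sets of mice for Csf1r and for Spi1. The interaction of set and treatment in limma had an adjusted p of 0.0231 for Csf1r and 0.0440 for Spi1, among 1050 genes (7.49%) that passed. For Csf1r, the ANG II minus control difference was 25.2 adjusted FPKM in set 2 and 1.21, 6.95 and 3.95 in sets 1, 3 and 4. For Spi1 it was 7.99 in set 2 and 9.75 in set 3, against 0.251 in set 1 and 0.239 in set 4. The sets are not named in the labels, and what separated them was not tested.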

How the results depend on the processing

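The count of called genes among all genes was 831, and it became 1489 with 0.1 rather than 1 added to the values, 4697 with no fold change threshold and 552 without set 2. Of the 10 genes 5 were called, and 0 without set 2, where the adjusted p in limma ran from 0.0543 (Cd68) to 0.356 (Chil3). Each of 24 fits without 1 mouse called 4 to 6 of the 10. Over 378 alternative values of single genes, 343 kept direction and side of the threshold. A further 34 kept the direction but no longer passed, 1 newly passed (Ly6c2 without ANG II sample 12, limma, adjusted p = 0.0499) and 0 changed direction. For each gene 24 of these values came from leaving out 1 mouse, and fits within single sets were not counted. Within single sets the fold change was below 0 for Chil3 in set 1 (-0.13) and set 4 (-0.09), and for Arg1 (-0.04) and Spi1 (-0.002) in set 4. Quantile normalization split the calls of all genes into 458 higher and 275 lower, from 634 and 197, and median-ratio scaling into 541 and 278. With 0.1 added, log2 fold changes of low genes grew, to 1.86 for Plac8, 1.02 for Ly6c2, 0.92 for Chil3 and 0.85 for Arg1. Without set 3, Plac8 and Spi1 lost their calls (limma, adjusted p = 0.117 and 0.0854), and without set 4 Cd14 did (limma, adjusted p = 0.171). Cd14 also lost its call without set 1, with the set as a term, with quantile normalization (limma, adjusted p = 0.0528, 0.0523 and 0.0551) and in the Wilcoxon test (adjusted p = 0.0941). Whether the replicate numbers pair the samples is unknown. The 12 same-numbered pairs correlated from -0.56 to -0.001, and 0 ANG II samples correlated best with their own number. Both mice of such a pair lie in the same set, and the values were adjusted within sets, so these correlations cannot exclude pairing. With the replicate number as a block, 715 genes and 5 of the 10 were called, and Csf1r and Adgre1 no longer passed (limma, adjusted p = 0.0579 and 0.0915). The depth of the samples is unknown, and the low levels of Ly6c2, Chil3 and Arg1 limit what these genes can show.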

Other observations

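Genes of other immune cells were also measured. Of 8 dendritic cell genes 5 rose in limma, beside 20.9% of all genes, and the median log2 fold change of the 8 was 0.28. The largest were Itgax, an integrin also carried by macrophages (0.50 ± 0.14), and Cd209a (0.48 ± 0.09), a lectin of monocyte-derived dendritic cells. Without set 2, 3 of the 8 and 8.36% of all genes rose, and Itgax had 0.21 and did not pass in limma. Cd209a was at 0.980 ± 0.378 adjusted FPKM in the ANG II group and 0.408 ± 0.150 in the control group (SD, n = 12 each, limma, adjusted p = 1.86e-04), and it also rose without set 2 (limma, adjusted p = 0.00307). Flt3, the growth factor receptor of dendritic cell precursors, rose by 0.35 ± 0.07 and was named after its values were seen.

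Lymphocyte and mast cell genes were low in level. Of 8 T and NK cell genes 2 rose in limma, Nkg7 (0.36) and Cd3g (0.26), where 20.9% of all genes rose. Without set 2, 0 of the 8 rose. Of 5 B cell genes Cd79a fell by 0.25, where 12.6% of all genes fell. The 5 mast cell genes had adjusted p in limma from 0.107 to 0.673. In 8 endothelial genes Pecam1 rose by 0.37 and Kdr fell by 0.23, and the median log2 fold change was -0.004. Of 5 genes listed as near copies or relatives of the 10 (Ly6c1, Ly6a, Ly6e, Lyz1 and Chil1), 4 passed upward in limma, with adjusted p from 0.0343 to 0.0482. They were led by Lyz1 (0.59) and Ly6e (0.37). With the set as a term in limma each of the 4 had an adjusted p above 0.05. Ly6a and Ly6e were not aligned to Ly6c2, and Chil1 was 64.4% identical to Chil3, with 0 stretches of 75 bases shared. Of 8 fibroblast genes 5 rose in limma, led by Col1a1 (2.77 ± 0.88) and Col3a1 (2.63 ± 0.98), each with 3 values below 0. Without set 2 only Col1a1 of the 8 rose, with 0.77, and Col3a1 had 0.39 (limma, adjusted p = 0.0871).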
